A study of Mus musculus with 9 samples.

Results

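The genes of the AMPA and kainate receptor subunits were described in the medial prefrontal cortex (mPFC) of mice. The 9 members, Gria1 to Gria4 for AMPA receptors and Grik1 to Grik5 for kainate receptors, were taken by gene symbol from a table of 35125 gene rows. The choice was made with earlier results of these data known. All 9 were found, and all 9 were among the 14013 genes with at least 0.5 FPKM (fragments counted on a gene, scaled to its transcript length and to the size of the library) in at least 3 libraries. The libraries fall into 3 groups of 3: a control group without stress, a CUS model (chronic unpredictable stress), and a running model, labelled as exercise and described in the series design as running in stressed mice. Every library also carries the terms 4 week and week 8, whose meaning, like the strain, sex and age of the mice, is not given in the sources used here. Replicate numbers follow the order of listing and link no library of one group to one of another. Whether each library came from its own animal is not stated, so a p-value here reflects how far these libraries differ, which could be technical variation.

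AMPA and kainate receptors are glutamate-gated cation channels built as tetramers. AMPA receptors carry most of the fast excitatory current in cortex, and the subunits they contain set their calcium permeability, their kinetics and how they are moved into and out of synapses. Kainate receptors sit on both sides of the synapse, where they modulate transmitter release and add slow currents. Grik1, Grik2 and Grik3 encode subunits that can form channels alone, whereas the subunits of Grik4 and Grik5 reach the surface only in assemblies with these.

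The subunits share the loop that lines the pore, and one codon in it decides how much calcium the channel passes. The coding stretches below come from GENCODE release M21 transcripts (build GRCm38, the assembly of mm10) and are shown because this codon is the best known difference between Gria2 and the other AMPA subunits. Each is 48 bases long, read 5′ to 3′ on the coding strand and lies within 1 coding exon. The capitals mark the codon known as the Q/R site.
Gria1, exon 11, chr11:57243052-57243099, plus strand: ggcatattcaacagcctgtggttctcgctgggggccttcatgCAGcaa
Gria2, exon 11, chr3:80706908-80706955, minus strand: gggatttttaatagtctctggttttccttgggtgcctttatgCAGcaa
Gria3, exon 11, chrX:41610223-41610270, plus strand: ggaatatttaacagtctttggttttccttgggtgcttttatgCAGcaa
Gria4, exon 12, chr9:4464134-4464181, minus strand: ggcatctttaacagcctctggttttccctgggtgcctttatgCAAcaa
Grik1, exon 12, chr16:87940539-87940586, minus strand: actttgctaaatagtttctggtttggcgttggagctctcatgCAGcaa
Grik2, exon 13, chr10:49244326-49244373, minus strand: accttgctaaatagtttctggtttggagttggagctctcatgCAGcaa
Grik3, exon 12, chr4:125691165-125691212, plus strand: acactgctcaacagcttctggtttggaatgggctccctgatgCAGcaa
Grik4, exon 16, chr9:42547620-42547667, minus strand: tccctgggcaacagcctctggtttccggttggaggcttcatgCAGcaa
Grik5, exon 15, chr7:25022494-25022541, minus strand: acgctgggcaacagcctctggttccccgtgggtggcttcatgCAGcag

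In the reference, 8 of the 9 members hold CAG at this codon and Gria4 holds CAA, so the genome encodes glutamine in each. Over the 48 bases, Gria3 shared 43 with Gria2, Gria4 shared 42 and Gria1 shared 37, while the kainate members shared between 30 and 33. In neurons the enzyme encoded by Adarb1 edits the CAG of Gria2 in the RNA, so that nearly all of the protein carries arginine there and receptors with it pass little calcium. Grik1 and Grik2 are edited at the same codon in part. FPKM values hold no base calls, so the degree of editing in these mice was not analysed here.

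The AMPA subunits and Grik5 were abundant transcripts of this tissue, and the other kainate subunits were moderate or low. FPKM are scaled to length, so levels of different genes can be ranked roughly. They are not scaled to GC content, which ran from 40.2% for Gria2 to 62.3% for Grik5, and the annotation behind the lengths is not given. By the mean over the 9 libraries the order was Gria1 (86.6 FPKM), Grik5 (82.5), Gria2 (67.3), Gria3 (57.5), Gria4 (23.7), Grik3 (14.3), Grik4 (10.7), Grik2 (10.0) and Grik1 (4.21). Gria1 stood at the percentile 93.9 of the kept genes and Grik1 at 30.7. The ranges of Gria1 and Grik5 overlapped, and so did those of Grik5 and Gria2, of Grik3 and Grik4, and of Grik4 and Grik2. Gria1 exceeded Grik5 in 7 of 9 libraries, and Grik4 exceeded Grik2 in 5 of 9, so these neighbours are not separated by more than their spread. The steps from Gria2 to Gria3, from Gria3 to Gria4, from Gria4 to Grik3 and from Grik2 to Grik1 held in 9 of 9 libraries with no overlap of ranges.

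**Figure D1:**
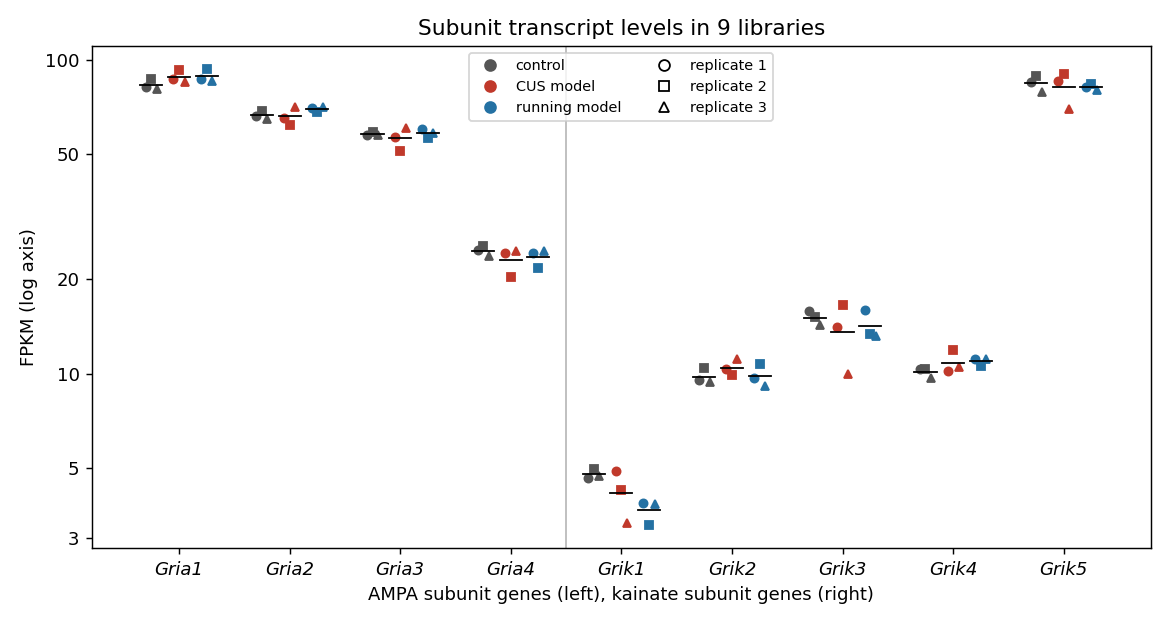
FPKM of the 9 subunit genes on a log axis, with 1 point per library (colour for the group, marker shape for the replicate) and a short line at each group mean. Within a gene the 3 groups lie close together, with the widest spread in Grik1, between 3.29 and 4.99 FPKM, and in Grik3, between 9.98 and 16.56 FPKM.

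Markers of cortical neurons were abundant, and the libraries differed in myelin and choroid plexus transcripts. Excitatory markers (5 of 5 above 0 in every library, Slc17a7 and Camk2a among them) summed to between 1690 and 1860 FPKM, and 6 inhibitory markers to between 666 and 867. Markers of striatal projection neurons summed to at most 16.2 FPKM. Those of the thalamus summed to at most 23.1, in running replicate 2, of which Calb2 alone gave 13.39. The 5 myelin markers summed to 1060 FPKM in control replicate 3 and to between 417 and 628 in the other 8 libraries, and the 4 choroid plexus markers to 215 FPKM in that library and at most 40.7 elsewhere. FPKM summed to 423257 in CUS replicate 3 and to between 370441 and 393663 in the others. In whole tissue, fewer cells of a type and less RNA per cell cannot be told apart.

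In the CUS model compared with controls, 0 of the 9 subunits passed the test, and so it was for the running model against the CUS model and for the running model against controls. A gene was called at a limma adjusted p under 0.05 over the 14013 genes. The background was low: 0.00714% of all genes were called in CUS against control, 0.00714% in running against CUS and 0.0214% in running against control. The 9 members had limma adjusted p between 0.425 and 0.928 in the first comparison, between 0.455 and 0.954 in the second and between 0.309 and 0.982 in the third. At an unadjusted p under 0.05 there were 0 of 9 members in CUS against control, where 14.7% of all genes passed, 0 of 9 in running against CUS, where 23.5% passed, and 1 of 9 in running against control, where 11.6% passed. With 3 libraries against 3, an exact test of a single gene cannot give a p under 0.1, so the calls depend on variances moderated over all genes.

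The intervals of the differences give the range of change that the data leave room for under each scaling. On the log2(FPKM + 0.5) scale, the 95% intervals of the 4 AMPA subunits ran from 0.828-fold to 1.16-fold in CUS against control, from 0.902-fold to 1.16-fold in running against CUS, and from 0.844-fold to 1.17-fold in running against control. For the 5 kainate subunits they were wider, from 0.704-fold to 1.2-fold, from 0.752-fold to 1.33-fold and from 0.657-fold to 1.2-fold. These limits depend on the scaling. Over rescaling to the same FPKM sum, quantile normalization and removal of the length and GC trend, the widest AMPA limits in the 3 comparisons were 0.796-fold and 1.2-fold, 0.842-fold and 1.23-fold, and 0.812-fold and 1.22-fold, and the widest kainate limits were 0.649-fold and 1.26-fold, 0.731-fold and 1.48-fold, and 0.638-fold and 1.27-fold. In the main scaling only the interval of Grik1 in running against control left out no change, and it did so under each of these scalings. Rescaling and quantile normalization each added Gria2 and Gria3 in running against CUS, both higher. Removing the length and GC trend added Gria1 in CUS against control (higher) and in running against CUS (lower), and Grik4 in CUS against control (higher). None of these was called. The intervals are those of single genes, without adjustment for the number of genes, and a p that misses the threshold does not show that the groups are alike.

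**Figure D2:**
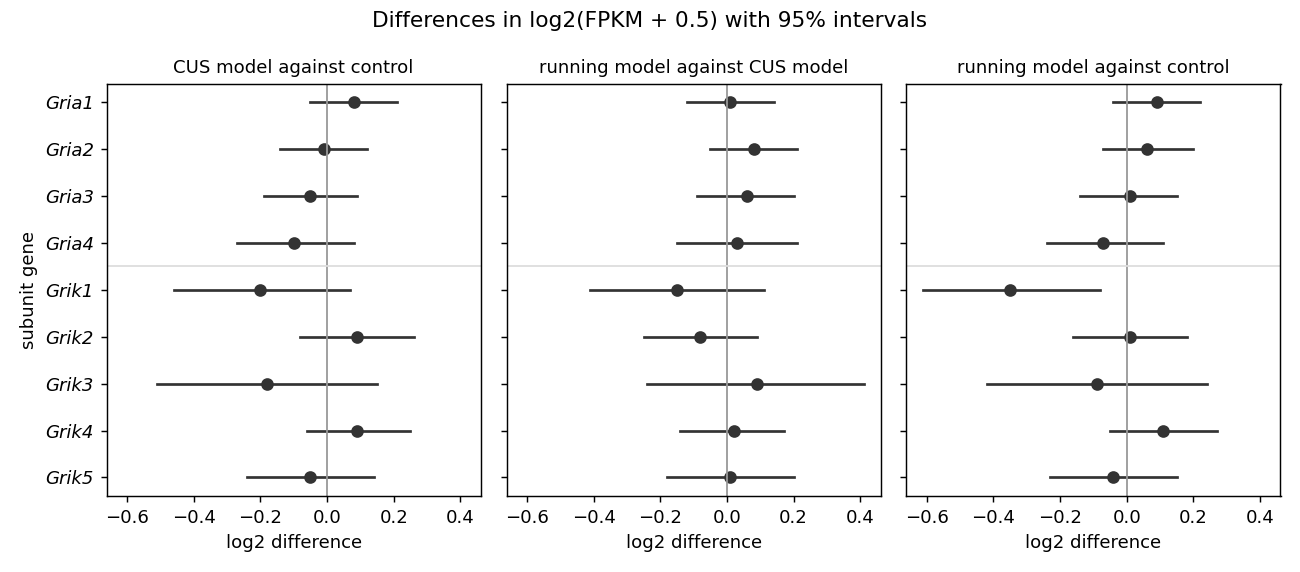
Difference in log2(FPKM + 0.5) of each subunit gene in the 3 comparisons, with points for the limma estimate and lines for its 95% interval. Of the 27 intervals in this main scaling, that of Grik1 in running against control, from -0.61 to -0.08, is the one that does not cross 0.

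Gria1 (chromosome 11, 57011571 to 57330244) encodes the subunit that is inserted into synapses upon activity and is phosphorylated in its long tail. Its values were 81.97, 86.73 and 80.85 FPKM in controls, 86.52, 92.55 and 84.85 in the CUS model, and 86.73, 93.45 and 85.49 in the running model. The highest values lay in replicate 2 of the CUS and running groups, and the 3 groups overlapped. The group means were 83.2 ± 3.12, 88.0 ± 4.05 and 88.6 ± 4.28 FPKM (SD, n = 3 each). The log2 difference was 0.08 (SE 0.0596) in CUS against control and 0.09 in running against control, with limma adjusted p of 0.512 and 0.594. Without CUS replicate 2 the first was 0.04, and without running replicate 2 the second was 0.05. Scaling moved both: CUS against control was 0.01 with every library rescaled to the same FPKM sum, 0.02 after quantile normalization and 0.16 with the length and GC trend removed, and running against control was 0.13, 0.11 and 0.03.

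Gria2 (chromosome 3, 80681450 to 80804227) encodes the subunit that limits calcium entry. Its level was 66.16, 68.52 and 64.80 FPKM for controls, 65.36, 61.78 and 70.80 in the CUS model, and 70.06, 68.05 and 70.51 in the running model. The CUS group held both the lowest and the highest of the 9 values. The group means were 66.5 ± 1.88, 66.0 ± 4.54 and 69.5 ± 1.31 FPKM (SD, n = 3 each), and the log2 difference of running against CUS was 0.08 (SE 0.0595, limma adjusted p = 0.455). That difference depends on the scaling. It was 0.18 after rescaling every library to the same FPKM sum, where the median of all genes was 0.06, then 0.16 after quantile normalization (median 0) and -0.04 after a length and GC trend was taken out (median -0.04). It was called in none of these 3.

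Gria3 (chromosome X, 41400819 to 41678601) encodes a subunit that pairs with the product of Gria2 in receptors that cycle through synapses. Gria3 was measured at 57.61, 58.89 and 57.62 FPKM in the controls, 56.73, 51.13 and 60.69 in the CUS model, and 60.31, 56.37 and 58.29 in the running model. CUS replicate 2 stood below the other 8 libraries. Gria4 (chromosome 9, 4417893 to 4796234), whose subunit gives fast-gating receptors and is prominent in parvalbumin interneurons, had 24.71, 25.43 and 23.72 FPKM in the controls, 24.27, 20.36 and 24.61 in the CUS model, and 24.24, 21.73 and 24.53 in the running model. The lowest values of Gria4 were again in replicate 2 of the CUS and running groups. The log2 differences of Gria4 were -0.10 in CUS against control and -0.07 in running against control (limma adjusted p = 0.558 and 0.777). Each rested on replicate 2: Gria4 was at -0.01 in CUS against control without CUS replicate 2, and at -0.01 in running against control without running replicate 2.

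The share of Gria1 among the AMPA subunit transcripts ranged from 35.2% to 41.0% and that of Gria4 from 9.02% to 10.7%. Gria1 made up 36.8% of the summed AMPA FPKM over the 9 libraries, Gria2 28.6%, Gria3 24.5% and Gria4 10.1%. Gria2 took 28.6% ± 0.0823 in controls, 28.3% ± 1.03 in the CUS model and 29.0% ± 0.563 in the running model (SD, n = 3 each). Gria1 took 35.8% ± 0.352, 37.8% ± 2.94 and 36.9% ± 1.81. The spread of the Gria1 share in the stressed groups came from CUS replicate 2 at 41.0% and running replicate 2 at 39.0%, while the other 7 libraries lay between 35.2% and 37.2%. The log2 ratio of Gria1 to Gria2 was 0.583 and 0.458 in those 2 libraries and between 0.261 and 0.405 in the others. The summed AMPA level lay between 226 and 241 FPKM.

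**Figure D3:**
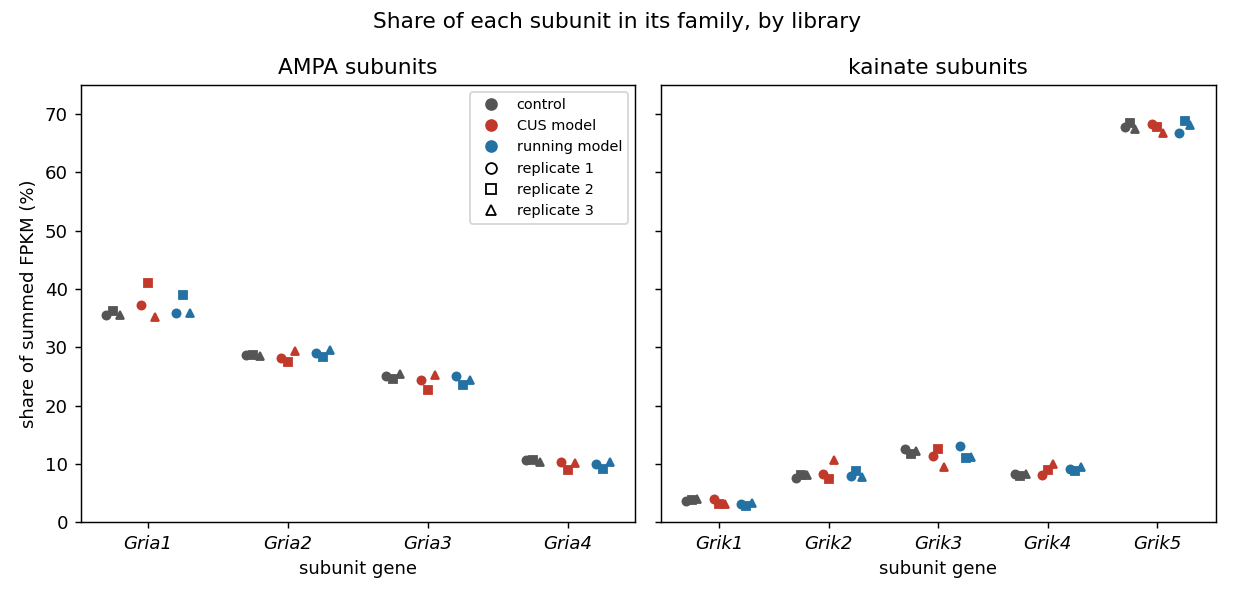
Share of each subunit in the summed FPKM of its family in percent, with 1 point per library (colour for the group, marker shape for the replicate). Gria1 stands apart in CUS replicate 2 (41.0%) and running replicate 2 (39.0%), and Grik5 holds between 66.7% and 68.8% of the kainate sum in every library.

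Among the kainate subunits, Grik1 had the largest difference between groups. Grik1 (chromosome 16, 87895901 to 88290863), a channel-forming subunit found in cortical interneurons among other cells, had 4.67, 4.99 and 4.73 FPKM in the controls, 4.90, 4.26 and 3.35 in the CUS model, and 3.89, 3.29 and 3.85 in the running model. The 3 running libraries lay below the 3 controls with no overlap, and the CUS libraries covered nearly the whole range. The group means were 4.8 ± 0.170, 4.17 ± 0.779 and 3.68 ± 0.335 FPKM (SD, n = 3 each). The log2 difference of running against control was -0.35 (SE 0.118). This was the 1 of 9 members counted above at an unadjusted p under 0.05, and it did not pass the adjustment (limma adjusted p = 0.309). Over the 19 alternative settings the running against control difference of Grik1 lay between -0.38 and -0.28 and its adjusted p between 0.0969 and 0.603. Of all genes, 4.55% had a smaller p in running against control. The Grik1 log2 difference of CUS against control was -0.20. It was -0.06 without CUS replicate 3, -0.31 without CUS replicate 1 and -0.04 with library quality weights.

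Inhibitory markers were listed beside Grik1 because it is found in cortical interneurons among other cells, which whole tissue does not resolve. Their summed level was between 685 and 860 FPKM in controls, between 768 and 867 in the CUS model and between 666 and 722 in the running model. Sst, the somatostatin gene and the largest part of that sum, had 598.80, 471.15 and 591.86 FPKM in controls and 495.44, 451.19 and 440.88 in the running model, at -0.25 on the log2 scale with a limma adjusted p of 0.395. The running against control log2 differences of the others were -0.41 for Pvalb, -0.12 for Slc32a1, -0.03 for Gad1, 0.04 for Gad2 and 0.18 for Vip. So 4 of the 6 had negative and 2 positive differences. Of the 6, 0 were called and 1 (Sst) had an unadjusted p under 0.05, beside 11.6% of all genes. None of the 6 inhibitory markers was at 0 in any library. In running against control, all kept markers were lower for myelin (5 of 5), endothelium (4 of 4) and striatal projection neurons (4 of 4). They were all higher for thalamus (4 of 4) and choroid plexus (2 of 2), and mixed for the remaining lists. The part of any of these cell types in the Grik1 values was not tested.

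Grik2 (chromosome 10, 49093680 to 49790161), the channel-forming subunit best known from hippocampal mossy fibres, had 9.52, 10.40 and 9.39 FPKM in the controls, 10.37, 9.89 and 11.11 in the CUS model, and 9.69, 10.70 and 9.15 in the running model. The groups overlapped throughout, with log2 differences of 0.09, -0.08 and 0.01 in the 3 comparisons. Grik3 (chromosome 4, 125490259 to 125714173), whose channels need high glutamate, had 15.81, 15.19 and 14.29 FPKM in the controls, 14.08, 16.56 and 9.98 in the CUS model, and 15.97, 13.38 and 13.16 in the running model. CUS replicate 3 stood below the rest. The log2 difference of CUS against control was -0.18 (limma adjusted p = 0.553), and it was 0.02 without CUS replicate 3 and -0.33 without CUS replicate 2. With the length and GC trend removed it was -0.02.

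Grik4 and Grik5 encode the subunits that bind kainate with high affinity. Grik4 (chromosome 9, 42518182 to 42945000) had 10.35, 10.34 and 9.70 FPKM in the controls, 10.17, 11.92 and 10.47 in the CUS model, and 11.14, 10.60 and 11.17 in the running model. The running libraries stood above the controls without overlap, with means of 11 ± 0.321 and 10.1 ± 0.372 FPKM (SD, n = 3 each) and a log2 difference of 0.11 (limma adjusted p = 0.580). Grik5 (chromosome 7, 25009849 to 25075694) had 85.03, 88.64 and 78.90 FPKM in the controls, 85.19, 89.88 and 69.79 in the CUS model, and 81.98, 83.65 and 79.73 in the running model. Its lowest value was again in CUS replicate 3, and its log2 differences were -0.05, 0.01 and -0.04.

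Grik1 and Grik4 were the 2 of 9 members whose values did not overlap between running and control. That share is near the background, since 22.4% of all genes did not overlap in that comparison. In CUS against control 0 of 9 members had no overlap, against 19.7% of all genes, and in running against CUS 0 of 9, against 24.9%.

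Grik5 held most of the summed kainate FPKM, with 67.8% over the 9 libraries. Grik3 followed with 11.7%, Grik4 with 8.78%, Grik2 with 8.28% and Grik1 with 3.46%. The Grik5 share was 67.9% ± 0.497 in controls, 67.6% ± 0.850 in the CUS model and 67.9% ± 0.991 in the running model (SD, n = 3 each). The Grik1 share was 3.87% ± 0.160, 3.45% ± 0.417 and 3.06% ± 0.309, and the lowest control (3.72%) lay above the highest running library (3.29%). The Grik4 share was 8.18% ± 0.169, 9.05% ± 0.924 and 9.11% ± 0.414, with the highest control at 8.29% and the lowest running library at 8.72%. These shares were not tested. The AMPA sum was 1.94 times the kainate sum on average, with 2.30 times in CUS replicate 3 and between 1.70 and 2.04 in the other libraries.

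Much of the spread lay in single libraries. The SD of log2(FPKM + 0.5) over the 9 libraries was 0.07 for Gria1, Gria2 and Gria3, 0.10 for Gria4, 0.08 for Grik4, 0.09 for Grik2, 0.11 for Grik5, 0.20 for Grik1 and 0.21 for Grik3, beside a median of 0.13 over all kept genes, which also include lower ones. CUS replicate 2 held the highest value of 3 members (Grik3, Grik4 and Grik5) and the lowest of 3 (Gria2, Gria3 and Gria4). CUS replicate 3 held the highest of 3 (Gria2, Gria3 and Grik2) and the lowest of 2 (Grik3 and Grik5). The largest deviation of a member from its own mean was -0.48 on the log2 scale, for Grik3 in CUS replicate 3. CUS replicate 2 and CUS replicate 3 departed from the mean in opposite directions for all 9 members, for example 0.10 and -0.03 for Gria1 and 0.22 and -0.48 for Grik3.

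**Figure D4:**
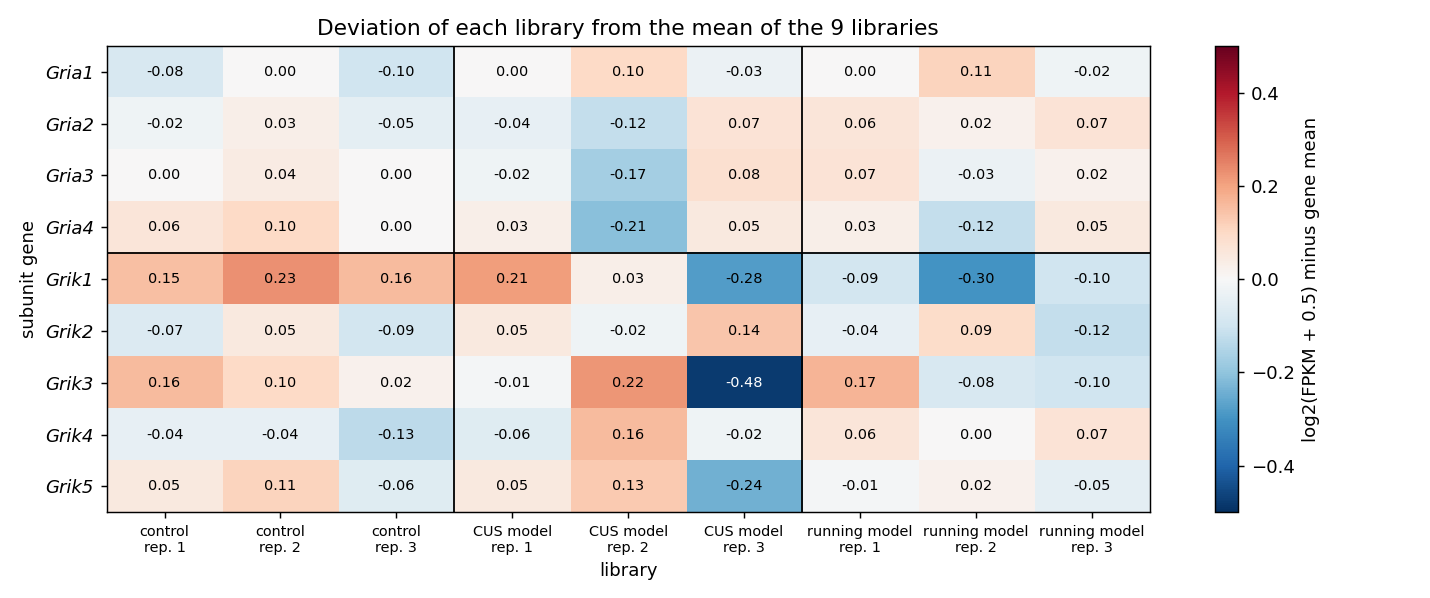
Deviation of log2(FPKM + 0.5) in each library from the mean of the gene over the 9 libraries, with genes in rows, libraries in columns and the value printed in each cell. CUS replicate 2 is at -0.12, -0.17 and -0.21 for Gria2, Gria3 and Gria4, and CUS replicate 3 at -0.48 and -0.24 for Grik3 and Grik5.

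Across the 9 libraries, members of the same family could run together or apart. Gria2 and Gria3 had a Pearson r of 0.86 and a Spearman rho of 0.80, Gria3 and Gria4 had 0.85 and 0.60, and Grik3 and Grik5 had 0.87 and 0.63. Gria1 went the other way from Gria4, with an r of -0.73 and a rho of -0.43. These 4 are picked from 36 pairs and describe 9 libraries that share their depth and normalization with both genes. Among 12335 genes with a mean of at least 1 FPKM, the closest in pattern to Gria1 was Dnajc14 (r of 0.962), to Gria2 Megf11 (0.945), to Gria3 Osbpl8 (0.933), to Gria4 Kcnh7 (0.947) and to Grik1 Zkscan2 (0.950). To Grik2 it was Nsun5 (0.967), to Grik3 Pigb (0.974), to Grik4 Zdhhc22 (0.945) and to Grik5 Adck2 (0.959). For Grik3 there were 41 genes above an r of 0.9 and for Gria3 there were 6.

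The genes of the proteins that assemble, carry and anchor these receptors gave a frame for the subunits. The lists hold 55 genes of auxiliary subunits, assembly factors, trafficking partners, extracellular organisers, editing enzymes and the related NMDA and delta receptor subunits, of which 54 were kept and Grin3b was not. Of the 54, 0 were called in any of the 3 comparisons. At an unadjusted p under 0.05 there were 8 in CUS against control (4 higher, 4 lower), 13 in running against CUS (8 higher, 5 lower) and 3 in running against control (3 higher). These are 14.8%, 24.1% and 5.56% of the 54, beside the 14.7%, 23.5% and 11.6% of all genes.

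The TARPs are small membrane proteins that bring AMPA receptors to the synapse and slow their closing. At an unadjusted p under 0.05 there were 0 of 6 in each comparison, beside 14.7%, 23.5% and 11.6% of all genes. A list of 6 is too short to set apart from these shares. Cacng3 was the most abundant TARP gene, with a mean of 121 FPKM over the 9 libraries, followed by Cacng7 with 82.3 and Cacng8 with 40.4. The list medians were -0.04, 0.02 and -0.01 on the log2 scale in the 3 comparisons. The cornichon proteins, another class of auxiliary subunit, included Cnih2, with 187.02, 186.55 and 184.68 FPKM in controls, 196.34, 197.67 and 230.57 in the CUS model and 175.99, 188.34 and 168.25 in the running model. Its running and CUS values did not overlap, as was so for 24.9% of all genes. They differed by -0.23 on the log2 scale with a limma adjusted p of 0.113, and CUS replicate 3 was highest. The Cnih2 difference was -0.15 without that library and -0.08 after quantile normalization, and lay between -0.27 and -0.08 over the 19 alternatives. Gsg1l, an auxiliary protein that dampens AMPA currents, had a log2 difference of 0.29 in running against CUS (limma adjusted p = 0.129).

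Of the 6 assembly factors of the endoplasmic reticulum, 1 had an unadjusted p under 0.05 in CUS against control (higher), 3 in running against CUS (1 higher, 2 lower) and 1 in running against control (higher). The shares of all genes were 14.7%, 23.5% and 11.6%, and a list of 6 is too short to set apart from them. Frrs1l, which is needed to build AMPA receptors, had 36.27, 36.04 and 31.17 FPKM in controls, 31.36, 33.10 and 20.76 in the CUS model and 39.28, 37.07 and 42.81 in the running model. The running libraries lay above the CUS libraries without overlap, and 24.9% of all genes had no overlap in that comparison. Mean Frrs1l levels were 39.7 ± 2.90 and 28.4 ± 6.68 FPKM (SD, n = 3 each), and the log2 difference was 0.50, with a limma adjusted p of 0.0978. Without CUS replicate 3 it was 0.30, and over the 19 alternatives it lay between 0.30 and 0.63. The serine hydrolase gene Abhd6, whose protein holds back AMPA receptor delivery, averaged 23.8 ± 0.942 FPKM in controls and 28.4 ± 0.621 in the running model (SD, n = 3 each). The log2 difference was 0.25 (limma adjusted p = 0.202). Abhd12 had a log2 difference of -0.23 in running against CUS (limma adjusted p = 0.0963), and of -0.05 after quantile normalization. The Abhd12 difference lay between -0.27 and -0.05 over the 19 alternatives.

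Partners of the subunit tails and of the extracellular face included the smallest adjusted p of the lists. Akap5, which anchors kinases and a phosphatase beside the Gria1 product, had 17.42, 15.81 and 15.03 FPKM in controls, 12.83, 15.57 and 15.82 in the CUS model and 18.97, 18.83 and 19.16 in the running model. The 3 running libraries were above the other 6. Of all genes, 24.9% had no overlap in running against CUS and 22.4% in running against control. The share with both was not computed. The Akap5 log2 difference of running against CUS was 0.36 (SE 0.0843), with a limma adjusted p of 0.0776. With the length and GC trend removed it was 0.23, and over the 19 alternatives it lay between 0.23 and 0.49. Nptxr, a pentraxin receptor that clusters AMPA receptors, had 202.73, 173.62 and 150.81 FPKM in controls, 133.39, 166.00 and 82.01 in the CUS model and 187.60, 177.72 and 177.62 in the running model, a log2 difference of running against CUS of 0.57 (limma adjusted p = 0.139). Its lowest value was in CUS replicate 3, without which the difference was 0.28. Over the 19 alternatives the Nptxr difference lay between 0.28 and 0.79. Nptx2, a secreted pentraxin induced by activity, averaged 41.0 ± 5.74 FPKM in controls and 32.0 ± 5.42 in the CUS model (SD, n = 3 each). That is -0.36 on the log2 scale (limma adjusted p = 0.267), and -0.23 without CUS replicate 1. The Nptx2 difference lay between -0.55 and -0.23 over the 19 alternatives.

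Adarb1, the editor of the Gria2 codon shown above, had 25.45, 27.09 and 26.45 FPKM in controls, 25.87, 26.56 and 20.31 in the CUS model and 28.75, 28.81 and 30.10 in the running model. The running libraries lay above the other 6, where no overlap with CUS was seen for 24.9% of all genes and none with control for 22.4%. The Adarb1 log2 difference of running against CUS was 0.27 (SE 0.0896, limma adjusted p = 0.117). It was 0.15 without CUS replicate 3 and 0.10 with the length and GC trend removed, and lay between 0.10 and 0.38 over the 19 alternatives. For kainate receptors, the auxiliary subunit genes Neto1 and Neto2 averaged 21.5 and 11.4 FPKM over the 9 libraries. In their list of 4 genes, C1ql3 had an unadjusted p under 0.05 in CUS against control (higher) and in running against CUS (lower). No other gene of the list did in any comparison. The shares of all genes were 14.7%, 23.5% and 11.6%, and 4 genes are too few to set apart from them. C1ql3, a secreted protein of excitatory synapses, had a log2 difference of 0.28 in CUS against control (limma adjusted p = 0.270). Its highest value, 143.99 FPKM, was in CUS replicate 3, without which the difference was 0.16. Over the 19 alternatives that difference lay between 0.14 and 0.37.

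The NMDA subunits, which share synapses with AMPA receptors, are set beside them. Grin2b had 19.82, 19.24 and 16.66 FPKM in controls, 13.68, 17.59 and 12.10 in the CUS model and 18.55, 19.60 and 21.36 in the running model, a log2 difference of running against CUS of 0.46 (limma adjusted p = 0.0877). Grin2a had one of 0.29 (limma adjusted p = 0.0827), and of 0.15 with the length and GC trend removed. In the same comparison the 4 AMPA subunits had log2 differences between 0.01 and 0.08 and the 5 kainate subunits between -0.15 and 0.09. The difference between receptor classes was not tested.

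**Figure D5:**
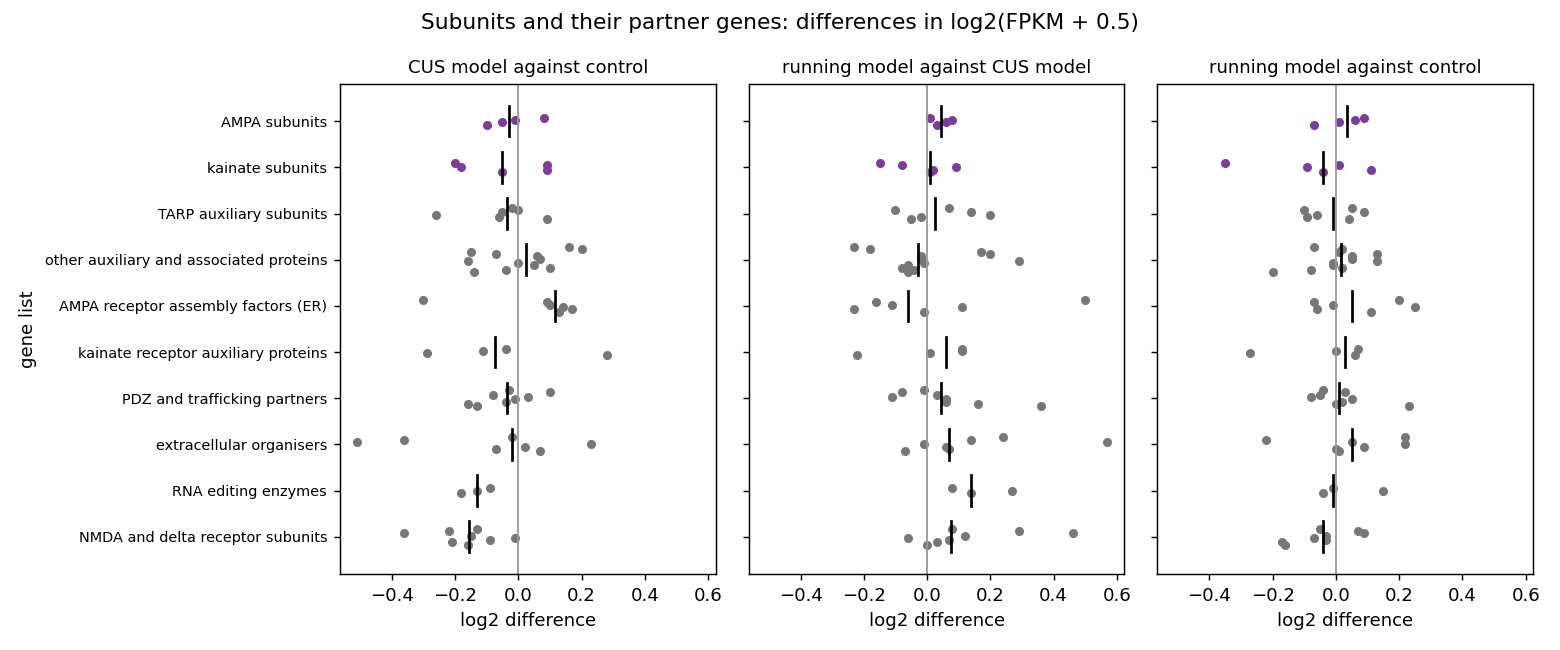
Difference in log2(FPKM + 0.5) of each kept gene of the subunit lists (purple) and of the lists of partner and related genes (grey) in the 3 comparisons, with a vertical line at each list's median. In running against CUS the AMPA subunits lie between 0.01 and 0.08, while Frrs1l (0.50), Nptxr (0.57), Grin2b (0.46) and Akap5 (0.36) are the points farthest to the right.

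The 2 alternative settings that called the most genes in running against CUS called 0 of the 9 members. With 9 members, a count of 0 cannot be set apart from the shares of all genes given here. Without CUS replicate 2, 10.8% of all genes were called, and so were 10 of the 54 partner and related genes, Frrs1l, Akap5, Nptxr, Adarb1, Grin2a and Grin2b among them. The smallest limma adjusted p of a member was then 0.248, for Grik3. With library quality weights, which gave CUS replicate 3 a weight of 0.244, 15.5% of all genes were called, 14 of the 54 partner and related genes and 0 of 9 members, where Grik1 had the smallest limma adjusted p at 0.0553.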

How the data were processed

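Polyadenylated RNA of mouse mPFC was sequenced in 9 libraries, per the labels' protocols. Reads were processed by the authors with Bowtie2 2.2.5, RSEM 1.2.12 and DESeq2 1.4.5 on mm10, per the submitters' processing notes, whose roles, like the annotation, those notes do not give. What the authors deposited is FPKM with 2 decimals. Read depth is unknown, so no counting interval is given. The protocol names no strand marking, so antisense reads cannot be told apart.

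Values were analysed as log2(FPKM + 0.5). A gene was kept if 3 or more libraries reached 0.5 FPKM. The 30264 rows without an NCBI gene identifier were at 0 throughout. All 9 libraries entered 1 limma 3.58.1 model in R 4.3.3 with trended moderated variances (6 residual and 4.71 prior degrees of freedom), tested on simulated data first, with Benjamini-Hochberg adjustment over the 14013 kept genes. Fold changes on this scale understate those of low genes. Named partner genes are those with the smallest unadjusted p in a list, up to 3, and genes alike in pattern those of the highest Pearson r. The members and lists were chosen with earlier results of these data known. Gene coordinates are RefSeq's on GRCm38.p6. Transcript length and GC came from GENCODE M21, matched for 98.2% of kept genes. Alternatives were other pseudocounts, filters, scalings, variance priors, library weights and leaving out each library.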

Additional observations from a re-analysis of the deposited data

How the results depend on the processing

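Over all genes, library weights called 8, 2178 and 147 in the 3 comparisons, against 1, 1 and 3 in the reported fit, and leaving out 1 library called between 0 and 1518 in running against CUS, the highest without CUS replicate 2. The count of members called was 0 in each comparison under all 19 alternatives. No paired analysis was possible because the replicate numbers follow the order of listing. Of the 513 alternative values of the 27 member differences, 35 changed sign, none of them called, and all belonged to main differences of at most 0.18. With the length and GC trend removed, CUS against control gave 0.05 for Gria2 and 0.03 for Grik5. Running against CUS gave -0.13 for Gria1, -0.04 for Gria2, -0.07 for Gria4, -0.12 for Grik3, -0.11 for Grik4 and -0.07 for Grik5, and running against control -0.03 for Gria3 and -0.02 for Grik2. With library weights, Grik5 was at 0.00 in CUS against control, Grik3 at -0.02 and Grik5 at -0.06 in running against CUS, and Grik2 at -0.02 in running against control. With every library rescaled to 1 FPKM sum, Grik2 was at 0.01 in running against CUS. The cause was not tested. Leaving out 1 library each, CUS against control ranged from -0.06 to 0.03 for Gria2, -0.11 to 0.02 for Gria3, -0.33 to 0.02 for Grik3 and -0.12 to 0.06 for Grik5. Running against CUS ranged from -0.03 to 0.05 for Gria1, -0.01 to 0.11 for Gria3, -0.06 to 0.08 for Gria4, -0.11 to 0.24 for Grik3, -0.03 to 0.08 for Grik4 and -0.10 to 0.08 for Grik5. Running against control ranged from -0.02 to 0.03 for Gria3 and -0.05 to 0.06 for Grik2. Of the named partner genes, 14 had an unadjusted p under 0.05, each taken in the comparison where its p was smallest. Their differences had the same sign in all 266 alternative values, 18 of which were called. These 14 were picked for a small p, which favours a steady sign, so they do not stand for all partner differences. Depth is unknown, which limits most what can be said of Grik1, the lowest member.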
